A study of Mus musculus with 8 samples.

Results

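The baseline transcriptome of cultured optic nerve is described here from the control arrays, which were the samples whose treatment label reads Saline, 4 of 8 arrays in the series. The optic nerve carries the axons of retinal ganglion cells to the brain. Its own cells are astrocytes, myelinating oligodendrocytes and their precursors, microglia, the cells of blood vessels and a sheath of meningeal fibroblasts. The cell bodies of the ganglion cells lie in the retina, so that the nerve itself holds glial nuclei and few or no neuronal ones. In bulk RNA of such a mixture, fewer cells of a type and less RNA per cell cannot be told apart.

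The nerves came from C57BL/6 mice of postnatal days 35 to 45 and were kept for 3 days in vitro in organotypic medium with saline, while the other 4 arrays held nerves kept with 20 mM lithium chloride. The labels give 6 nerves per sample. The methods differ from the labels in naming the C57/BL10 strain and another count of nerves. Nerves were dissected with the retina attached and were cleaned of the arachnoid membrane, and neither source says whether the samples were of separate cultures or mice. The spread given here may therefore be technical. No array of uncultured nerve was analysed here, and changes brought about by dissection or culture cannot be told apart from the state of the tissue in the animal.

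Each array gave 1 signal per probe set, which is a linear intensity from the MAS5 algorithm, scaled so that the trimmed mean of every array was 100. A gene was represented by its brightest probe set with 1 symbol, which gave 18193 genes, and was ranked by its mean signal on the 4 control arrays. The signal depends on how well the probes of a set bind as well as on the amount of RNA, so that a rank orders signals and not transcript numbers. Of the 9010 genes with several probe sets, 4246 had a brightest set more than 10-fold above the dimmest.

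As a floor, the highest signal of the 27 probe sets for bacterial poly-A controls on the same array was used, which was 5.64, 3.74, 2.84 and 2.13 on control arrays 1 to 4. Above this floor on all 4 arrays were 13023 genes, or 71.6% of all genes, and 2827 genes were above it on none. A signal of 200 on all 4 arrays was reached by 4546 genes, or 25% of all genes. Counts of list members above either level are to be read beside these shares. A count near its share says nothing of the list. The median gene had a signal of 54.5, the 90th percentile was 565 and the 99th was 1392. Median signals over all probe sets were between 14.8 and 17.5. Gapdh and Actb were read from both ends as a sign of RNA integrity. On the log2 scale Gapdh was brighter at its 3′ end by 0.34 to 0.40, and Actb by 0.64 to 0.70. With the 95th percentile of 71 odorant and vomeronasal receptor genes as the floor, a choice made after seeing the data, 13492 genes passed on all 4 arrays, or 74.2%.

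Of the glial markers, Mbp and Gfap were among the 100 brightest genes, while Aqp4 (rank 370) and the microglial Csf1r (rank 2090) were not. The fibroblast marker Dcn (rank 309) lay above Aqp4 and Csf1r, and Nefl and Pecam1 were below the median gene. Mbp, which encodes myelin basic protein, had a signal of 2396, 2431, 2217 and 2336 on control arrays 1 to 4, the fourth highest mean of all genes (2345 ± 93.8, SD, n = 4). Gfap, the intermediate filament of astrocytes, had 1563, 1471, 1652 and 1687 (rank 94). Aqp4, the water channel of astrocyte endfeet, had 1172, 1212, 1146 and 1039.5 (rank 370). The values of these 3 genes differed little between arrays.

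Dcn, a proteoglycan made by fibroblasts, had a signal of 1194, 863, 1308 and 1451, lowest on array 2 (rank 309). Csf1r, the receptor that microglia need to survive, had 518, 432, 516 and 573 (rank 2090), also lowest on array 2. Nefl, the light neurofilament of axons, had 29.6, 34.5, 16.4 and 13.7 (rank 10952), higher on arrays 1 and 2 than on arrays 3 and 4. Pecam1, an adhesion molecule of endothelial cells, had 13.8, 9.87, 14.02 and 12.4 (rank 12099). All 7 markers lay above the floor on every array. The choice of the brightest probe set bears on these placings. The means of the 8 probe sets of Mbp ran from 29.1 to 2345, and those of the 3 of Gfap from 1049.6 to 1593. Aqp4 had 3 with means from 51.1 to 1143, the lowest of them under the median gene, Dcn had 2 at 78.9 and 1204, and Csf1r had 3 from 73.5 to 510. Nefl had 2, at 10.5 and 23.6, and Pecam1 had only 1.

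**Figure D1:**
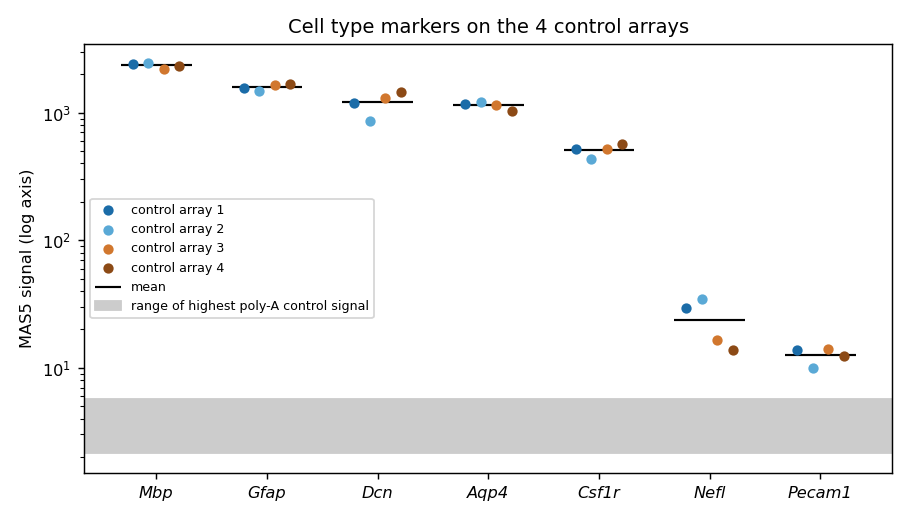
MAS5 signal (log axis) of 7 cell type markers on each of the 4 control arrays, with a bar at the mean and a grey band over the floors of the 4 arrays, from 2.13 to 5.64. Mbp, Gfap, Dcn, Aqp4 and Csf1r lie above 400 on every array, and Nefl and Pecam1 lie between the band and 35.

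Myelin genes gave the highest signals of any cell type list. All 14 mature oligodendrocyte genes measured were above the floor on all 4 arrays, and their median percentile among all genes was 96.1, beside 50 for all genes by construction. Mobp, a structural protein of compact myelin, had signals of 2419, 2416, 2162 and 2183 (rank 5). Cnp, the cyclic nucleotide phosphodiesterase of myelin, had 1912, 1832, 1681 and 1831, and Mal, a membrane proteolipid, had 1606, 1657, 1396 and 1483. These 3 genes had their lowest value on array 3, as did Mbp. The lowest of the list, Aspa, which breaks down N-acetylaspartate, had a mean of 198.

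Genes of the precursor stages were measured at lower signals. All 12 measured members of the oligodendrocyte precursor list were above the floor on every array and their median percentile was 66.7, with 5 at a signal of 200. Bcas1, a gene of newly forming myelinating cells, was the brightest of them with a mean of 1454 ± 30.3 (SD, n = 4). Pdgfra, the growth factor receptor by which precursors are recognised, had 493, 425, 599 and 592. Enpp6, an ectoenzyme of newly differentiating oligodendrocytes, had 204, 224, 401 and 376, and the values of arrays 3 and 4 were all above those of arrays 1 and 2. Lhfpl3 had 285, 313, 285 and 287. Cspg4, the NG2 proteoglycan of precursors, had a mean of 64.9, and Gpr17, a receptor of committed precursors, one of 30.2.

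Astrocyte genes stood second to myelin genes, with 16 of 17 above the floor on all 4 arrays and a median percentile of 92.1. Glul, the glutamine synthetase of astrocytes, had signals of 1733, 1605, 1446 and 1491, and Gja1, the connexin of astrocyte gap junctions, had 1645, 1581, 1322 and 1393. Slc1a3 and Slc1a2, the glutamate transporters, had means of 895 and 553, and Aldh1l1, a folate enzyme used to mark astrocytes, had 310.4. Only Gpc5, a glypican with a mean of 5.20, was not above the floor on every array. The potassium channel Kcnj10, which buffers extracellular potassium, varied more between arrays than Gfap, Aqp4, Glul or Gja1, with 481, 382, 799 and 971, higher on arrays 3 and 4.

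Microglia and macrophage genes were all above the floor, 18 of 18 measured, with a median percentile of 84.4. C1qb, a chain of complement C1q, had signals of 1573, 1264, 1648 and 1799, and Ctss, a lysosomal protease, had 1367, 1261, 1211 and 1199. Laptm5, a lysosomal membrane protein, and Tyrobp, an adaptor of immune receptors, had means of 955 and 906. The signals within the list were wide apart. Tmem119 and P2ry12, which are used to tell resident microglia from other macrophages, had means of 79.97 and 37.98, and Cx3cr1, the fractalkine receptor, had 13.9. Itgam, an integrin subunit, had 16.4.

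Vessel genes lay nearer to the middle of all genes. Of 15 endothelial genes, 14 were above the floor on all 4 arrays, with a median percentile of 53.8, and 2 reached a signal of 200 throughout. Slc2a1, a glucose transporter of the blood-brain barrier that other cells also use, had signals of 1671, 1489, 1355 and 1508. Flt1, a receptor for vascular endothelial growth factor, had 294, 254, 294 and 368. Abcb1a, an efflux pump of the barrier, had 107, 116, 264 and 266, and Emcn, a sialomucin of the endothelial surface, had 74.4, 51.7, 149 and 206. For Abcb1a and Emcn the values of arrays 3 and 4 did not overlap with those of arrays 1 and 2. Of 13 genes of pericytes and smooth muscle, 10, or 76.9%, were above the floor on every array, near the 71.6% of all genes (median percentile 50.9). Tagln, an actin-binding protein of smooth muscle, had 1186, 1098, 660 and 1024, and Pdgfrb, the receptor that marks pericytes, had 164, 126, 211 and 285, while Myh11, the smooth muscle myosin, had a mean of 2.82.

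Genes of meningeal fibroblasts were all above the floor, 18 of 18, with a median percentile of 66.1. Mgp, an inhibitor of calcification, had signals of 1488, 1385, 1414 and 1391. Col3a1 and Col1a1, which encode fibrillar collagens, had 1093, 742, 1136 and 1299 and 871, 685, 772 and 858. Array 2 was the lowest of the 4 for both collagens and for Dcn. Aldh1a2, the retinoic acid enzyme of the meninges, had a mean of 335, and the organic anion transporter Slc22a6 had 8.32.

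Of 16 genes of neurons and retinal ganglion cells, 10, or 62.5%, were above the floor on all 4 arrays, beside 71.6% of all genes. There were 2 above it on none, and the median percentile was 37.7. Tubb3, a neuronal beta-tubulin, stood apart from the others with 366, 297, 401 and 370, followed by Thy1, a surface protein of ganglion cells, with 85.4, 66.4, 131 and 171. Stmn2, a regulator of microtubules in axons, had 73.7, 69.3, 103 and 116, and Snap25, a synaptic fusion protein, had 88.0, 110.1, 53.4 and 51.9. Thy1 and Stmn2 were higher on arrays 3 and 4, and Snap25 on arrays 1 and 2. Rbpms, a marker of ganglion cell bodies, had a mean of 60.9, and the transcription factors Pou4f1 and Isl2 had 4.34 and 1.60.

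**Figure D2:**
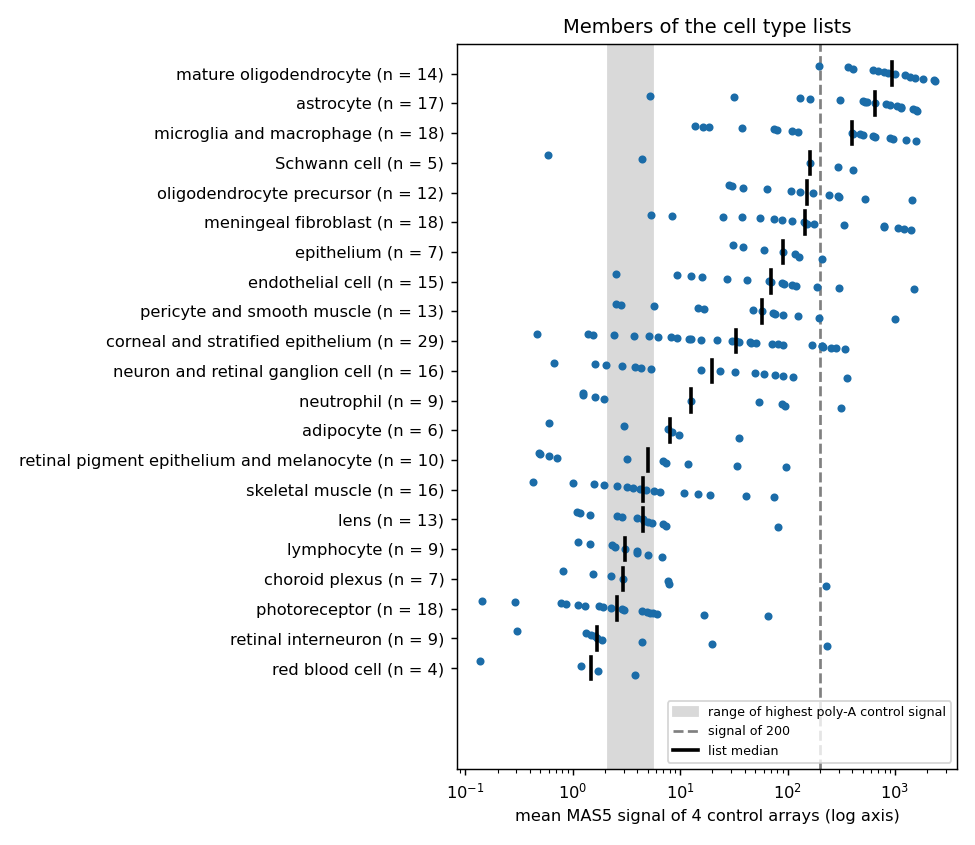
Mean MAS5 signal over the 4 control arrays (log axis) for each member of 21 cell type lists, with a black bar at the list median, a grey band from 2.13 to 5.64 over the floors and a dashed line at 200. The medians run from 930 for mature oligodendrocytes to 1.47 for red blood cells, of which 4 of 10 listed genes were measured.

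Because the retina was attached at dissection, lists of retinal and other foreign tissues were read as well. Of 18 photoreceptor genes, 3 were above the floor on all 4 arrays and 8 on none. The 3 were Rom1, a disc membrane protein (mean 65.2), the arrestin Sag (22.3, 18.9, 14.3 and 11.1) and Pde6g, a subunit of the rod phosphodiesterase (5.66, 6.24, 5.37 and 3.86), which lay close to it. The summed signal of the 18 genes was 147, 112, 118 and 122 on arrays 1 to 4. The defining transcription factors Crx and Nrl had means of 0.775 and 1.77. Of 9 genes of retinal interneurons, 2 were above the floor throughout, Pcp2 (mean 233) and Tfap2a (19.6). Of 10 genes of pigment epithelium and melanocytes 5, or 50%, were, beside 71.6% of all genes. They were led by Rdh5 (96.5) and Best1 (33.8), while Rpe65, the visual cycle isomerase, was at 0.602.

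The list medians of red cell, lymphocyte, skeletal muscle, adipocyte, choroid plexus and lens genes were near the floor, from 1.47 to 8.08. Those of neutrophil and Schwann cell genes were higher, at 12.5 and 163. None of 4 red cell genes and none of 9 lymphocyte genes was above the floor on all 4 arrays. Of 10 red cell genes listed, 6 were not analysed, among them the globin genes Hbb-b1, Hbb-bt and Hbb-bs. The 4 genes read therefore do not tell how much red cell RNA was present. Above the floor throughout were 5 of 16 skeletal muscle genes, 1 of 6 adipocyte genes and 1 of 7 choroid plexus genes. The last was the water channel Aqp1 (mean 227), which is not particular to that tissue. The floor is meant below as well. Of 13 lens genes, chosen after values had been seen, 1 was above it, Bfsp2, a filament protein (82.3). Beside 71.6% of all genes, 3 of 5 Schwann cell genes, or 60%, were above it. They were the cadherin Cdh19 (402, 395, 423 and 411), the transcription factor Egr2 (mean 293), which is also an immediate early gene, and Dhh (163), while the peripheral myelin gene Pmp2 had a mean of 0.593. Of 9 neutrophil genes, 5, or 55.6%, were above the floor, beside 71.6% of all genes. S100a8, a calcium-binding protein of myeloid cells, was the brightest with 244, 298, 319 and 401. The granule genes Mmp8, Camp and Ltf were also above the floor on all 4 arrays, with means of 95.6, 88.0 and 54.6. The granule protease Elane and the peroxidase Mpo had 1.62 and 1.24.

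Keratins were brighter than most of these foreign genes, and they varied strongly between arrays. Of 7 general epithelial genes 6 were above the floor on all 4 arrays, and of 29 genes of cornea and stratified epithelium, a list made after values had been seen, 20 were. The latter share of 69.0% is below the 71.6% of all genes above that floor, so that the count says nothing of the tissue, and the description rests on single genes. Krt12, the keratin of corneal epithelium, had signals of 341, 129, 29.7 and 353, and Krt6a, a keratin of stratified epithelia, had 305, 151.2, 51.5 and 500.4. Krt14, a keratin of basal cells, had 45.4, 25.1 and 10.4 on arrays 1 to 3 and 750 on array 4. The summed signal of the 29 genes was 3055, 1412, 991 and 3605 on arrays 1 to 4, so that array 3 had the least and array 4 the most. Bright members weigh most in a sum. The median log2 deviation of a member from its own 4-array mean was highest on array 1 (0.58, beside 0.33 on array 4) and lowest on array 3 (-0.99). Defining genes of the list were low on some arrays, with Krt5, the partner of Krt14, at 13.6 on array 3 and Trp63, the master regulator of stratified epithelia, at 3.69, 5.31, 2.44 and 21.5. Their part in other differences between these arrays was not tested.

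The 25 genes with the highest signals were mainly those of ribosomes, of the cytoskeleton and of myelin. Ribosomal protein genes made up 10 of the 25 and 23 of the 100 brightest genes. Lgals1, a galactose-binding lectin, was first on each array, with 2795, 2885, 2528 and 2952, and Fth1, the heavy chain of the iron store ferritin, was second on each, with 2607, 2515, 2364 and 2506. The cytoskeletal genes were Vim, an intermediate filament (2251), Tuba1a, an alpha-tubulin (2170), Actb (2126), and Tmsb4x and Cfl1, which bind actin (2277 and 2154). Mt2, a metal-binding metallothionein (2162), Dbi, an acyl-CoA-binding protein (2150), Selenow, a selenoprotein (2013), and B2m, the light chain of class I histocompatibility molecules (1987), were also among them.

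The order within these brightest genes was loose. The first rank had 1.41-fold the signal of the 25th and 1.77-fold that of the 100th, and ranks 100 and 101 were at 1572.45 and 1572.39, Ccl2 and Tsc22d1. Of the 100 genes, 78 were among the 100 brightest on every single array and all 100 among the 200 brightest. Neighbours in the order mostly did not differ beyond their spread, as for Rpl6 (2011 ± 110, SD, n = 4), which ranked between 11 and 30 on single arrays. Of the 25, 11 were read by probe sets with the suffix _x_at or _s_at, and of the 100, 34 were, against 9.34% of all genes. Such probe sets can share sequence with other transcripts, and ribosomal protein genes have many near-identical copies in the genome, so that their signals are uncertain.

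**Figure D3:**
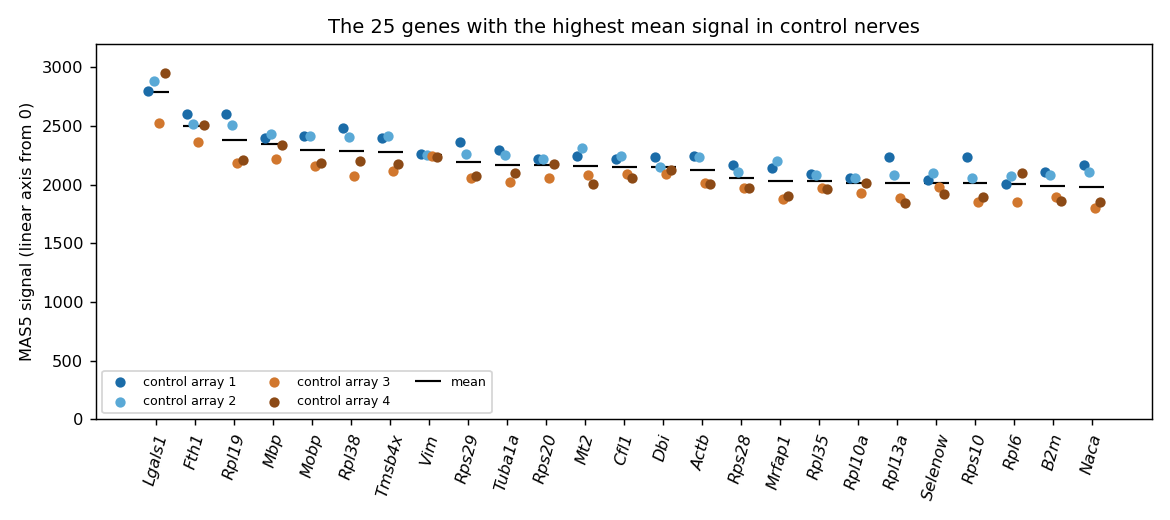
MAS5 signal (linear axis from 0) of the 25 genes with the highest mean on the control arrays, in order of rank, with a point per array and a bar at the mean. Lgals1 at 2790 is 1.41-fold above the gene at rank 25, and the points of neighbouring genes overlap.

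Several glial and secreted products also belonged to the 100 brightest genes. Sparc, a matricellular protein, had a mean of 1941 (rank 27), Timp1, an inhibitor of metalloproteinases, 1884, Apod, a lipid carrier, 1795, Ptgds, the prostaglandin D synthase of meninges and oligodendrocytes, 1706, and Clu, an extracellular chaperone, 1671. Klk6, a protease of oligodendrocytes, had 1734, and Pdpn, a membrane mucin of reactive astrocytes and meninges, 1652. The same 100 genes were read on the lithium arrays only to place them. There 85 were among the 100 brightest and 99 among the 200 brightest, and Timp1, at rank 647, was the exception. Of the first 25, 22 were among the 25 brightest there.

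Genes that reactive astrocytes express were bright in these cultured nerves. All 13 of the list shared by reactive states were above the floor on all 4 arrays, with a median percentile of 98.1. Besides Vim and Timp1, Lcn2, an iron-binding lipocalin, had 1731, 1795, 1925 and 1993, and S1pr3, a receptor for sphingosine phosphate, had 1606, 1614, 1737 and 1899. Both were higher on arrays 3 and 4 than on arrays 1 and 2. All 9 genes measured of the 12 on the A1 list and all 12 of the A2 list were above the floor as well, with median percentiles of 82.2 and 86.9. Srgn, a proteoglycan of secretory granules (1380), and H2-D1, a class I heavy chain (1327), led the first, and S100a10, an annexin partner (1478), and Tm4sf1, a membrane protein (913), the second. Many of these genes are made by microglia, endothelial cells or fibroblasts too.

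Heat shock genes were bright, and so were some immediate early genes. All 16 heat shock genes measured were above the floor (median percentile 97.6), led by the chaperones Hspa8 (1903, 1846, 1830 and 1903) and Cryab (1785, 1777, 1775 and 1767). Of 18 immediate early genes, 16 were above it (median percentile 72.2), and 8 had a signal of 200 throughout. The brightest were Ier3, which limits cell death (mean 1386), and the 3 transcription factors Jund (1353), Egr1 (1086) and Fos (892). Npas4 and Egr4, which follow neuronal activity, were above the floor on no array. The chemokine Ccl2 (1572) and Nfkbia, the inhibitor of NF-κB (1625), were also among the 100 brightest.

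All 16 glycolysis and lactate genes and all 23 genes of the respiratory chain that were measured were above the floor, with median percentiles of 96.8 and 94.6. Aldoa, an aldolase, had 2007, 1965, 1896 and 2043, and Ldha, a lactate dehydrogenase subunit, 1962, 1810, 1702 and 1794. Slc16a1, a lactate transporter through which oligodendrocytes are known to supply axons, had a mean of 1439. Cox7a2 and Uqcrb, subunits of respiratory complexes, had 1791 and 1675.

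Among glial and meningeal transcription factors, 24 of 26 were above the floor on all 4 arrays and 13 had a signal of 200 throughout (median percentile 75.1). Id4, an inhibitor of helix-loop-helix factors, had 971, 1019, 875 and 925, and Sox9, which specifies astrocytes, had 791, 960, 810.1 and 721. Nfia, a regulator of gliogenesis, had 845, 956, 675 and 453, higher on arrays 1 and 2. Sox10 and Myrf, factors of the oligodendrocyte lineage, had means of 647 and 404, and Olig1 and Olig2 had 245 and 171. Foxc1, Foxd1 and Tbx18, factors of meningeal and mural cells, had 143, 74.1 and 55.6. The fibroblast factor Tcf21 was above the floor on no array.

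Of 22 inwardly rectifying and two-pore-domain potassium channel genes, 12, or 54.5%, were above the floor on every array, beside 71.6% of all genes. Only Kcnj10 reached a signal of 200. The next were Kcnk1 (mean 113), Kcnk13 (93.5) and Kcnj8, a channel of pericytes (63.8, 51.1, 91.8 and 157). Kcnj16, which assembles with Kcnj10 in astrocytes, had 28.4, and Kcnj2, Kcnj6 and Kcnk4 were above it on none. Of 11 connexins, 9, or 81.8%, were above it. Gja1 was followed by Gjb2, a connexin of meninges and astrocytes (352, 492, 353 and 334), and Gjb1, a connexin of oligodendrocytes (mean 194).

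Receptors for purines and for glutamate were measured at low signals. Of 16 purine receptors, 10, or 62.5%, were above the floor on all arrays, beside 71.6% of all genes. Of the 10, 2 reached 200, the ATP-gated channels P2rx4 (302, 309, 364 and 347) and P2rx7 (373, 388, 293 and 206). The G-protein-coupled P2ry6 had a mean of 169, and P2rx2, P2ry4 and P2ry10 were above the floor on no array. Of 20 glutamate receptors, 14, or 70%, were above the floor, near the 71.6% of all genes, and none had a signal of 200 throughout. Subunits of AMPA receptors led, with Gria1 at 75.02, 85.8, 159 and 180, and Gria3, Gria4 and Gria2 at means of 90.9, 87.9 and 59.5. The NMDA receptor subunits Grin2a and Grin2c and the metabotropic receptor Grm2 were above the floor on none, with means of 0.165, 0.458 and 1.25.

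Of 24 growth factors and 22 of their receptors, 21 of each were above the floor on all 4 arrays. Pdgfa, the ligand of the precursor receptor Pdgfra, had 897, 1005, 893 and 821. Ptn, a heparin-binding neurotrophic factor, had a mean of 860 and Hbegf, a ligand of the epidermal growth factor receptor, 754. Fgf1 had 339, 323, 593 and 613, with arrays 3 and 4 above arrays 1 and 2. The brightest receptors were Fgfr2 (mean 658), Pdgfra (527) and Ntrk2, the receptor for Bdnf (370.4), while Bdnf itself had a mean of 5.58. Fgf10, a growth factor, and Erbb4, a neuregulin receptor, were above the floor on no array.

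All 19 cell division genes measured were above the floor on every array, with a median percentile of 56.6 and 2 of them at 200 throughout. Birc5, a regulator of chromosome segregation and cell survival, had 416, 283, 599 and 676, and Prc1, which bundles spindle microtubules, had 317, 219, 389 and 466. Top2a, the topoisomerase of dividing cells, had 168, 123, 254 and 328. Array 2 was the lowest and array 4 the highest for these 3 genes.

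The 4 sex-linked genes measured were all above the floor. Xist, which is transcribed from the inactive X chromosome of females, had 820, 996, 891 and 751, and Eif2s3y, a Y-linked gene, had 279.8, 229, 142 and 197. Kdm5d and Uty, also Y-linked, had means of 26.1 and 9.82. Xist and Y-linked transcripts were thus measured together on each of the 4 arrays.

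The spread between the control arrays fell as signal rose. The median coefficient of variation (CV, the SD over the mean of 4 signals) was 0.386 for genes with a mean under 50, 0.158 from there to 200, 0.103 from there to 1000 and 0.0622 above that. Of the 5111 genes with a mean of at least 200, 157 had a CV over 0.3. The lowest CV values were those of Cryab (0.00428), Vim (0.00444), Btbd3 (0.0047), Rtcb (0.00529) and Mrpl51 (0.00562). Pearson's correlation of log2 signals was taken over all probe sets, with the Affymetrix controls left out. Probe sets share the arrays and are not replicates. The correlation was 0.980 between arrays 1 and 2, 0.981 between arrays 3 and 4 and 0.971 to 0.975 for the other pairs.

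Arrays 1 and 2 thus resembled each other more than they did arrays 3 and 4. Of the genes with a mean of at least 200, 1996, or 39.1%, were higher on both of arrays 1 and 2 than on arrays 3 and 4, and 1494, or 29.2%, were lower. Of the 100 genes with the highest CV among them, 45 were higher and 44 lower, which the choice by spread affects. On the lithium arrays of the same numbers, 71.1% of the 45 and 86.4% of the 44 had the same order, beside 61.6% of the 1996 and 55.6% of the 1494. Whatever their order in controls, 34.4% of the 5111 genes were higher and 26.6% lower there. The labels do not say what samples of these numbers share.

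Apart from the keratins, the highest CV values were those of Mx1, an interferon-induced GTPase (469, 270, 61.3 and 34.3), and Slurp1, a secreted protein of cornea and skin (491, 148, 145 and 60.9). Chil1, a chitinase-like protein of reactive astrocytes, had 161, 318, 497 and 681, and BC052688 had 606, 608, 243 and 201. Ctbp2, a transcriptional corepressor, had 125, 120.3, 206 and 368, and Kcne3, a potassium channel subunit, had 143, 84.3, 332 and 249. Mx1, BC052688 and, by a narrow margin, Slurp1 were higher on arrays 1 and 2, and Chil1, Ctbp2 and Kcne3 were higher on arrays 3 and 4.

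**Figure D4:**
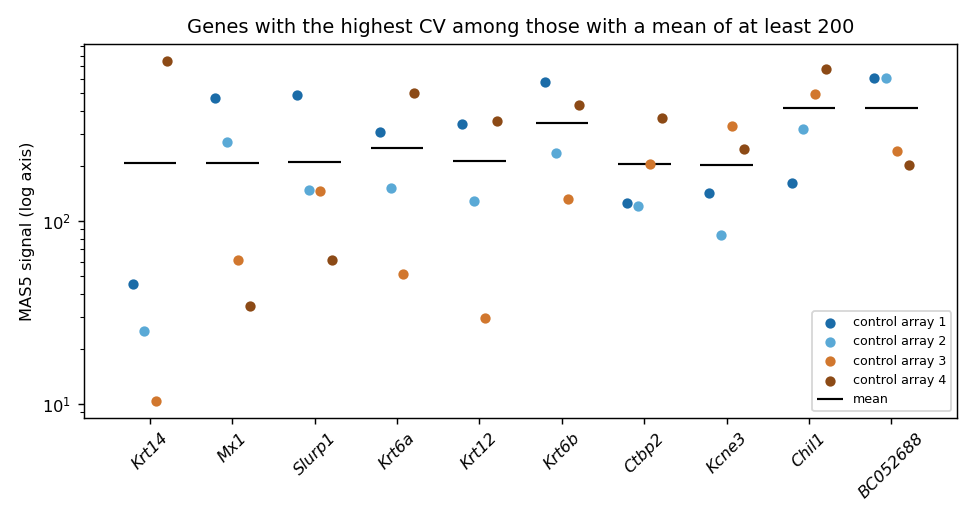
MAS5 signal (log axis) on each control array of the 10 genes with the highest CV among those with a mean of at least 200, with a bar at the mean. The keratin Krt14 runs from 10.4 to 750, and Mx1 is higher on arrays 1 and 2 (blue) than on arrays 3 and 4 (brown).

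Most interferon response genes, a list made after Mx1 had been seen and so no independent evidence, were higher on arrays 1 and 2. Of 28 members, 20 were higher on both of arrays 1 and 2 than on arrays 3 and 4, none was lower on both and 8 had another order, beside 39.1% and 29.2% of genes with a mean of at least 200. Members such as Ifih1, a sensor of viral RNA, varied little (CV 0.0816). All 28 measured were above the floor and 19 had a signal of 200 throughout. The median deviation of a member from its own 4-array mean was 0.39, 0.15, -0.15 and -0.31 on the log2 scale on arrays 1 to 4. Cxcl10, a chemokine, had 1502, 1151, 854 and 540.3, Rsad2, an antiviral enzyme, had 1167, 933, 558 and 387, and Ifit1, which binds viral RNA, had 1054, 1008, 774 and 717. For each of these 3, arrays 1 and 2 lay above arrays 3 and 4.

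The promoters of these 3 genes are shown because the motif bound by interferon-activated factors, GAAANNGAAA, was found in them. RefSeq promoter windows (GRCm38.p6) held 250 bases before and 50 bases from the start. Only the 250 bases before the start were searched, on both strands, and 3.13% of 14452 genes with a window held the motif there. So did 11 of 20 interferon response genes and 9 of 76 with a window among the 100 genes of highest CV. These sets overlap, since Rsad2, Cxcl10, Gbp2 and Trim30a held the motif and belong to both. Of 37 ribosomal protein genes with a mean of at least 200, 4, or 10.8%, held it, beside 11.8% of the 76. The lines give 5′ to 3′ stretches on the gene's strand with the motif or its reverse complement in capitals, for Rsad2 at chr12:26456503-26456602 (minus strand), Ifit1 at chr19:34640759-34640838 (plus strand) and Cxcl10 at chr5:92349040-92349139 (minus strand). A match describes letters and not a bound factor.
Rsad2: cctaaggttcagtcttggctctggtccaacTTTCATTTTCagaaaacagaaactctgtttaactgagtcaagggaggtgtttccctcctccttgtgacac
Ifit1: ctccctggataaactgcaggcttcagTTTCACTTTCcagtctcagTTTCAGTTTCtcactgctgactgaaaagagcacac
Cxcl10: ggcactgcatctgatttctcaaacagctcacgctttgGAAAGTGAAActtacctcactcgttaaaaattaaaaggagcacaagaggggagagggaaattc

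Ifit1 held 2 copies, and Rsad2 and Cxcl10 held 1 each. The 100 brightest genes did not share the motif, which 3 of 82 with a window held. The letters TATAA, 20 to 40 bases before the start, were found in 7 of these 82 and in 4.55% of all genes with a window. Vim, among the least variable genes, and Krt12, among the most variable, both had it (capitals), in windows at chr2:13574251-13574310 (plus strand) and chr11:99422260-99422319 (minus strand).
Vim: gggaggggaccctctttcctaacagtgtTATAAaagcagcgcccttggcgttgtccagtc
Krt12: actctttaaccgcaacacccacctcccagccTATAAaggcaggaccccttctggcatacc

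Other gene groups deviated in the opposite order. All 19 cell division genes, 10 of 12 basement membrane genes and 10 of 15 endothelial genes were lower on both of arrays 1 and 2 than on arrays 3 and 4. Of genes with a mean of at least 200, 29.2% had this order. That share is of brighter genes, since only 2, 4 and 2 members of these lists reached 200 throughout. For cell division genes the median deviation on arrays 1 to 4 was -0.27, -0.81, 0.45 and 0.68 on the log2 scale, and for 12 basement membrane genes, a list made after values had been seen, it was -0.28, -0.56, 0.26 and 0.65. Col4a1, a chain of the collagen network of basement membranes, had 396, 274, 540.2 and 709, and Col4a2, its partner chain, had 315, 225, 509 and 691. Endothelial genes deviated by -0.15, -0.49, 0.19 and 0.48. The median deviations of myelin, heat shock and respiratory chain genes stayed within 0.06 on every array, but single members could differ in either direction. Of 14 myelin genes, 8 were higher on both of arrays 1 and 2 than on arrays 3 and 4, and 5 were lower. For 16 heat shock genes these counts were 9 and 2, and for 23 respiratory chain genes 7 and 7. Beside them, 39.1% of genes with a mean of at least 200 were higher and 29.2% lower. In the epithelial and corneal lists, in contrast, array 3 was lowest.

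**Figure D5:**
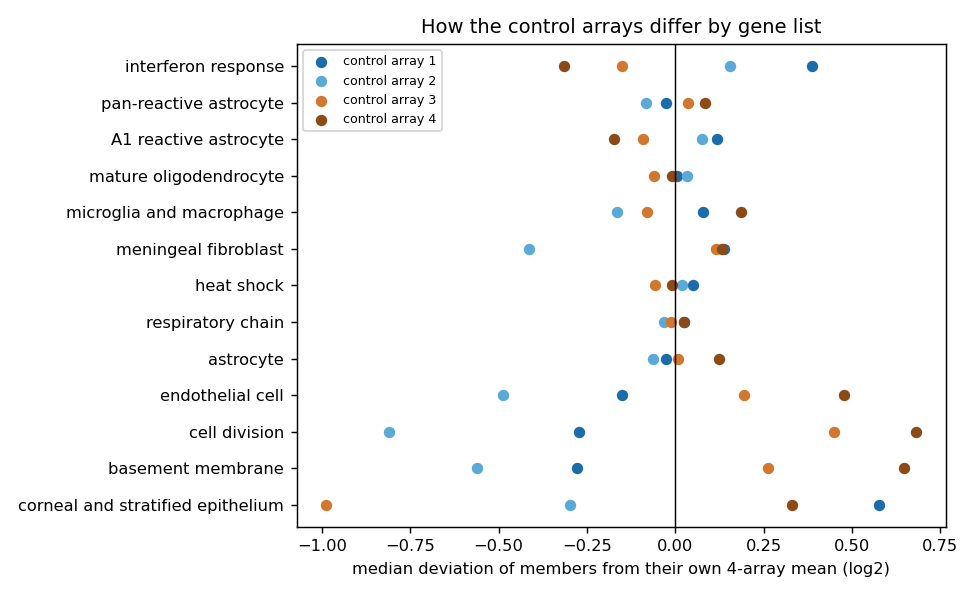
Median deviation of a list's members from their own mean over the 4 control arrays (log2), for 13 gene lists, with a point per array. The median of interferon response genes is higher on arrays 1 and 2, those of cell division, basement membrane and endothelial genes are higher on arrays 3 and 4, and array 3 has the lowest value of the corneal list.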

How the data were processed

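RNA of 4 control samples was measured on 1-colour Affymetrix Mouse Genome 430 2.0 arrays. The deposited values are MAS5 intensities on a linear scale, made by the authors with GeneChip Operating Software and GeneSpring, neither log transformed nor centred. Detection calls were not used here. The table held 45101 probe sets. Besides 64 Affymetrix controls, 34945 had 1 symbol in the platform annotation, 932 had more and 9211 had none. The brightest probe set by control mean stood for a gene. Means, SDs, CVs and ranks were computed on linear signals with pandas 2.3.3, and log2 values were floored at 1. No groups were compared by a test, since the genes were described by their level in the arrays that chose them. Dixon's ratio, with a limit of 0.829 for 4 arrays, marked single arrays far from the rest. Array number and background limit precision, not read depth.

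Named were the 25 brightest genes, the 7 markers, up to 4 members of each of 36 gene lists, the 10 highest and 5 lowest CV values, and list members above the floor on no array, while others were chosen after their values were seen. Members and lists were chosen with earlier results of these data known, and 4 lists after values were seen. List members without a probe set of 1 symbol were not analysed here. Alternatives were other scalings, other probe set choices, other floors and each array left out. Scripts were tested on simulated data.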

Additional observations from a re-analysis of the deposited data

Results flagged for a closer look

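Of 165 named genes, 40 list medians and 8 array measures, 5 genes and 1 list had 1 control array set far apart from the others by Dixon's ratio, which chance does in about 1 of 20 groups. Krt14 had a signal of 750 on array 4 and 10.4 to 45.4 on the others. Gjb2 had 492 on array 2 and 334 to 353 on the others, and Lhfpl3 had 313 on array 2 and 285 to 287 on the others. Nid1, a basement membrane linker, had 379 on array 2 and 517 to 537 on the others. Btbd3 had 377 on array 4 and 380.5 to 381 on the others, a narrow range. The median of 6 adipocyte genes was 17.4 on array 3 and 2.33 to 4.38 on the others, and of these Adipoq, an adipocyte hormone, had 25.5 on array 3 and up to 4.32 elsewhere.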

How the results depend on the processing

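No paired analysis was possible because the results come from no test between groups. Quantile normalization, median scaling and the choice of probe set over all 8 arrays left every list count, marker signal and total within 1.5 times or 1 SD of its value. With all probe sets of a gene averaged, 58 of the 100 brightest genes stayed among them and 83 genes in place of 157 had a CV over 0.3, and the signals were 1381 for Gfap, 1369 for Mbp, 454 for Aqp4, 641 for Dcn and 272 for Csf1r. Leaving out each array gave 104 to 229 genes over that CV, lowest without array 4, 13049 to 13514 genes above the floor, and 94 to 97 of the 100 brightest genes. Without 1 array the count above the floor was 0 to 1 for lymphocyte, 0 to 1 for red blood cell, 1 to 3 for adipocyte, 1 to 3 for choroid plexus and 1 to 4 for lens genes. Without _x_at and _s_at probe sets choroid plexus genes numbered 2.

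With a signal of 200 as the floor, 4546 genes passed. The list counts were then 5 for oligodendrocyte precursor, 10 for microglia, 2 for endothelial, 1 for pericyte, 6 for meningeal fibroblast, 1 for neuron, 1 for retinal interneuron, 1 for neutrophil, 13 for transcription factor, 1 for potassium channel, 2 for connexin, 2 for purine receptor, 9 for growth factor, 6 for growth factor receptor, 5 for A1, 8 for immediate early, 2 for cell division, 1 for sex-linked and 4 for basement membrane genes, and 0 for photoreceptor, pigment epithelium, skeletal muscle, adipocyte, choroid plexus, glutamate receptor, epithelium, corneal and lens genes. With the poly-A floor on at least 2 arrays they were 6 for photoreceptor, 4 for retinal interneuron, 8 for skeletal muscle, 1 for red blood cell, 6 for lymphocyte, 4 for adipocyte, 3 for choroid plexus, 19 for potassium channel and 9 for lens genes. With the 95th percentile of 71 chemosensory receptor genes as the floor, chosen after seeing the data, 13492 genes passed, and the counts were 5 for photoreceptor, 2 for lymphocyte, 2 for adipocyte, 3 for choroid plexus and 5 for lens genes. Counts near the floor therefore depend on it, and signals of that size limit what can be said of rare cells.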
